A study of Mus musculus with 10 samples.

Results

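The genes described here are the 57 listed nuclear genes for subunits of respiratory chain complexes I to IV, read by symbol from an RNA sequencing count table of the mouse cerebral cortex. They make up 57 of the 30935 genes in the table, and all 57 passed the filter on low counts that kept 15488 genes for testing. Complex I contributed 34 members, complex II 4, complex III 9 and complex IV 10. The members are the Nduf genes (complex I), the Sdh genes (complex II), the Uqcr genes with Cyc1 (complex III) and the Cox genes (complex IV). They were picked by name, and the rule sets no threshold on an expression value.

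The series holds 10 libraries of total RNA, all from cerebral cortex taken on postnatal day 8. In 5 of them the mice were Rbfox1 ΔHAR.505/ΔHAR.505, lacking the element HAR.505 of the Rbfox1 locus on both alleles and called knockout here, and in the other 5 they were Rbfox1 +/+, called wild-type. The samples of each genotype were independent per the series' design text. Strain, sex, the number of founder lines and any pooling of animals are not given in the labels. Libraries carry the replicate numbers of the labels, 2, 4, 5, 6 and 7 for wild-type and 1, 3, 5, 6 and 8 for knockout.

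Complexes I and II pass electrons from NADH and succinate to ubiquinone, complex III passes them on to cytochrome c, and complex IV, cytochrome c oxidase, hands them to oxygen. Complexes I, III and IV pump protons across the inner mitochondrial membrane, and ATP synthase uses the resulting gradient. Complexes I, III and IV combine nuclear-encoded subunits with subunits encoded by the mitochondrial genome, whereas complex II is wholly nuclear-encoded. The mitochondrially encoded subunits are not analysed here. The postnatal brain relies heavily on this chain, since ion pumping and synaptic activity consume much ATP.

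Library totals ran from 16479594 to 22391943 counts. Values are CPM, that is counts relative to a common library size, scaled with TMM factors, and groups are given as mean ± SD with n = 5 libraries. The table does not hold the deleted element itself, so the deletion could not be checked. Rbfox1, which encodes a neuronal splicing regulator, stood at 224 ± 14.4 CPM in wild-type and 215 ± 23.4 in knockout, with a log2 fold change of -0.06 and an edgeR adjusted p of 0.879. All 10 cortical excitatory neuron markers examined, among them Slc17a7 and Tbr1, were detected in every library, and their summed level was 1827 to 1945 CPM in wild-type and 1934 to 2039 in knockout. The 10 choroid plexus and ependyma markers summed to 246 to 310 CPM in wild-type and 9.55 to 226 in knockout, where Ttr, Otx2 and Tmem212 were at 0 in some libraries. The 10 striatal markers summed to 166 to 292 CPM in wild-type and 135 to 181 in knockout, with none of them at 0.

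Levels were compared between genes per kilobase of exon, as mean CPM over the 10 libraries divided by the length of the union of the gene's protein-coding exons. All 4 complexes sat well above the typical gene, at medians of 48.8 CPM per kilobase for complex I, 61.0 for complex II, 91.9 for complex III and 170 for complex IV, against 7.71 for the tested genes. Complex IV led through Cox6a1, which encodes the ubiquitous form of a supernumerary subunit, at 387 CPM per kilobase, and Cox4i1, the ubiquitous form of the subunit through which ATP inhibits the enzyme, at 385. Their ranges over libraries overlapped (321 to 440 and 326 to 425 CPM per kilobase), so these leading genes could not be ordered. Cox8a followed at 280, with a range of 221 to 337. Cox7b, an X-linked gene for a small accessory subunit, was the lowest member of complex IV at 60.8 CPM per kilobase, near the median of complex II.

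In complex III, Uqcrh, the hinge protein that aids the contact of cytochrome c1 with cytochrome c, reached 140 CPM per kilobase (119 to 163 over libraries), and Uqcrc1, a core protein, reached 135 (123 to 152). These ranges overlapped as well. The lowest value was that of Uqcrq, the ubiquinone-binding protein, at 47.5 CPM per kilobase, but this rests on the length used: with the median transcript length in place of the exon union, Uqcrq came to 172. In complex II, Sdhb, the iron-sulfur subunit, had 94.8 CPM per kilobase (88.2 to 99.9), above Sdha, the flavoprotein subunit, at 62.1 (53.6 to 69.4), with no overlap over libraries. Sdhc, a membrane anchor, was lowest at 30.4 (29.3 to 31.8). With median transcript lengths, the complex medians were 55.7, 61.0, 92.1 and 218 CPM per kilobase for I to IV, in the same order, while 11 members moved by over 1.5 times: 7 of complex I, Sdhc, Uqcrq, and Cox6c and Cox7c of complex IV.

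**Figure D1:**
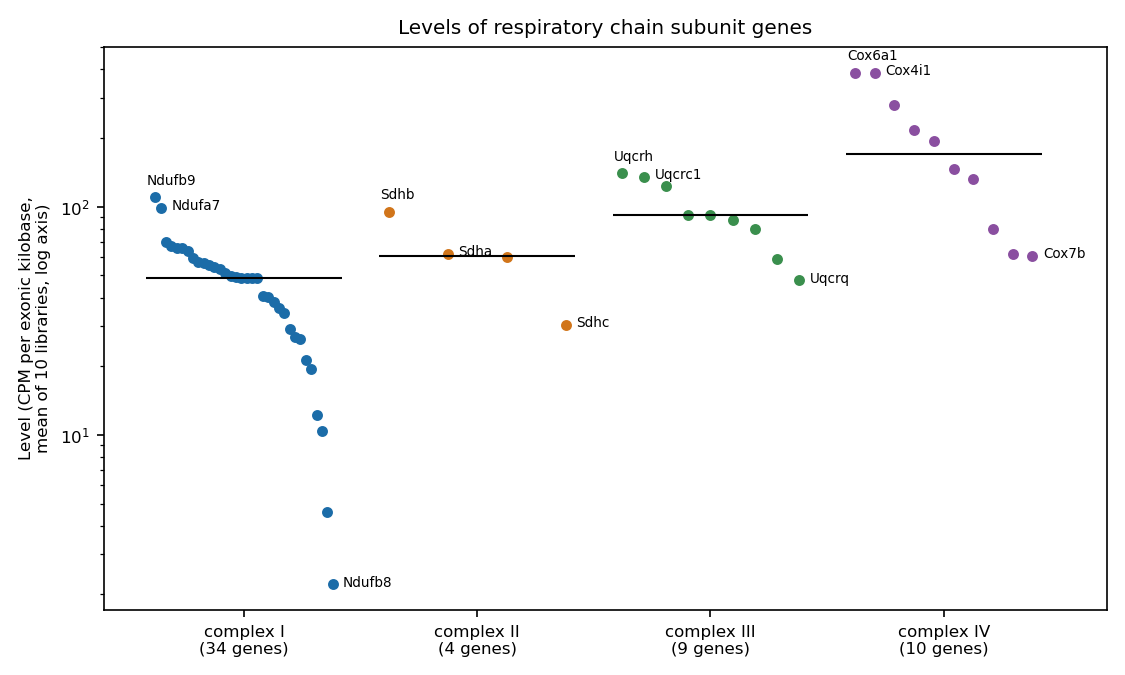
Level of each of the 57 subunit genes in CPM per kilobase of exon (log axis, mean of 10 libraries), grouped by complex and ordered by level, with a horizontal bar at the complex median. The medians rise from 48.8 (complex I) through 61.0 and 91.9 to 170 (complex IV), and the complex I genes span 2.21 (Ndufb8) to 109.8 (Ndufb9).

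Complex I had the widest span. Its highest members were Ndufb9, a membrane arm subunit, at 109.8 CPM per kilobase (90.2 to 121 over libraries), and Ndufa7 at 98.9 (85.3 to 113). Ndufb8, a membrane arm subunit commonly blotted as a marker of complex I, was the lowest of all members at 2.21 CPM per kilobase (1.51 to 3.16), with a mean of 93.6 counts per library. The top of this order rests on the length used: with median transcript lengths Ndufa6 (117), Ndufb5 (114) and Ndufa11 (113) stood above Ndufb9 (109.8) and Ndufa7 (98.9). Median transcript length raised Ndufb8 only to 3.65 CPM per kilobase, still the lowest value. Ndufs5, a supernumerary subunit of the membrane arm, was also low, at 10.4 CPM per kilobase.

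Some of these levels rest on reads that could belong to another gene. In the GRCm38 gene models, 12 of the 57 members shared over 20% of their 50-base stretches with another annotated gene, and none shared over 50%. They were Uqcrb (43.4%), Ndufs3 (39.7%), Ndufb4 (37.0%), Ndufb6, Cox5a (32.0%), Ndufs5, Ndufa13, Cox7c, Ndufa12, Cox5b, Uqcrc2 and Ndufb9 (23.4%). For Ndufb9, 19.5% of the exon length also lay within Gm49356 on the same strand. Ndufs5 shared 31.1% with BC002163, and the table lists a separate gene Ndufs5-ps at 35.6 ± 3.91 CPM in wild-type and 36.5 ± 2.14 in knockout, above Ndufs5 itself at 9.92 ± 1.56 and 7.91 ± 1.90. Cox7c shared 27.9% with 3 such genes. Over 20% of the exon length lay within another gene on the opposite strand for Ndufb6 (39.0%, Smim27) and Ndufa13 (30.0%, Tssk6). Ndufb8, the lowest member, shared 4.06% with Gm20538, and 4.26% of its exon length lay within that gene on the same strand. The values of these 12 members are therefore uncertain, and that of Ndufb8 may be too. Neither the strand setting nor the handling of multiply aligned reads is given in the sources used here.

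The isoforms that replace ubiquitous subunits in other tissues were close to absent. Cox6a2 and Cox7a1, the heart and skeletal muscle forms, had 0.810 ± 0.235 and 0.341 ± 0.262 CPM in wild-type and 0.583 ± 0.554 and 0.600 ± 0.419 in knockout. Cox8b had counts in 1 library (0.120 CPM), the testis cytochrome c gene Cyct also in 1 (0.110 CPM), and Cox8c in none. The testis isoform gene Cox7b2 stayed between 0 and 0.458 CPM. Ndufa4l2, a hypoxia-inducible paralog of a complex IV subunit, had 2.51 ± 0.657 CPM in wild-type and 2.18 ± 0.606 in knockout.

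Cox4i2, the hypoxia-responsive form that is known from lung, had 0.997, 0.322, 0.289, 0.585 and 0.407 CPM in wild-type 2, 4, 5, 6 and 7. The knockout libraries 1, 3, 5, 6 and 8 gave 0.718, 0.883, 1.10, 1.504 and 1.34 CPM. Wild-type 2 lay above knockout 1 and 3, so the groups overlapped, and the log2 fold change of 1.08 (SE 0.42) did not pass (edgeR adjusted p = 0.403). Cox4i1, the ubiquitous partner, exceeded Cox4i2 in every library by a wide margin.

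Deletion of HAR.505 was accompanied by no called change in any of the 57 subunit genes. With edgeR's quasi-likelihood test and Benjamini-Hochberg adjustment over all tested genes, 0 of 57 members reached an adjusted p of 0.05, where 0.381% of all tested genes did. The smallest adjusted p was 0.366, for Ndufb5, and DESeq2 and limma-voom also called 0 members. At an unadjusted p of 0.05, edgeR gave 4 members (7.02%), next to 8.71% of all tested genes. Of these 3 were higher in knockout, where 4.19% of all tested genes were, and 1 was lower, where 4.52% were. DESeq2 gave 3 members (6.46% of the genes it tested) and limma-voom 4 (9.15%), all higher in knockout. In bulk tissue, fewer cells of a type and less RNA per cell cannot be told apart, so these values describe the cortex sample as a whole.

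The intervals give the ratios compatible with each member's fit, not the size of change that the adjusted test would call. In simulated data, 30% of genes changed 1.2-fold and 82% of genes changed 1.5-fold upward were called, so small changes could go without a call. For 48 of the 57 members the 95% interval of the knockout to wild-type ratio lay within a 1.25-fold change in either direction, and for 55 within 1.5-fold. The exceptions were Ndufb8 (0.936 to 1.62) and Ndufs5 (0.639 to 0.998), both among the lowest members. The fitted log2 fold changes ran from -0.32 (Ndufs5) to 0.30 (Ndufb8) with a median of 0.016, next to -0.0021 over all tested genes. They were above 0 for 38 of 57 members (66.7%), against 49.1% of the tested genes, but this count rested on single libraries: it was 24 of 57 without wild-type 6, 24 without knockout 6, 29 without wild-type 7 and 47 without knockout 5.

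**Figure D2:**
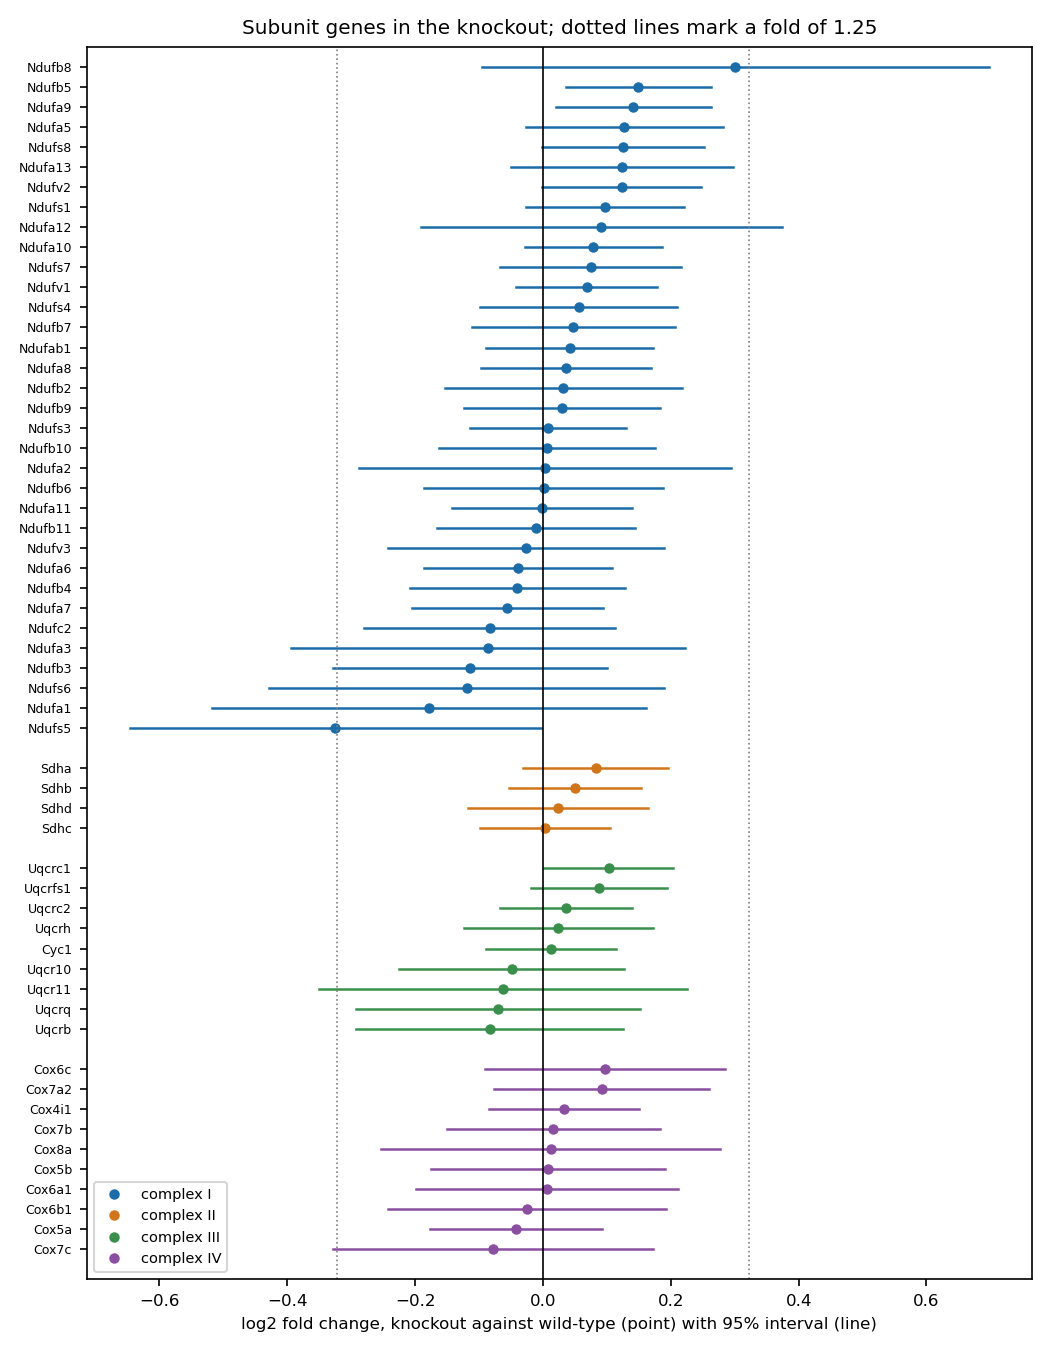
Log2 fold change of each subunit gene, knockout against wild-type, with its 95% interval from the edgeR fit over 10 libraries, grouped by complex. Dotted lines mark a 1.25-fold change, most intervals cross 0, and the widest belong to Ndufb8 and Ndufa1.

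Complex I summed to 1632 ± 106 CPM in wild-type and 1680 ± 102 in knockout, and 22 of its 34 members had a log2 fold change above 0 (median 0.031). The 6 core subunits listed (Ndufs1, Ndufs3, Ndufs7, Ndufs8, Ndufv1 and Ndufv2), most of which carry the flavin or the iron-sulfur clusters, were all above 0, with a median of 0.086 and a range of 0.0074 to 0.13. The 28 supernumerary subunits, which stabilise the complex and aid its assembly, had 16 above 0 and a median of 0.0048. None of these core or supernumerary members passed the test. The grouping by role was made after the values had been seen and is a description.

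Ndufb5, a supernumerary subunit of the membrane arm, had 69.5, 67.1, 68.1, 62.7 and 70.8 CPM in the wild-type libraries and 74.2, 75.3, 80.1, 74.2 and 71.3 in the knockout libraries. The lowest knockout library (8) lay just above the highest wild-type library (7). It was the sole member whose groups did not overlap, 1 of 57, where 1.83% of the tested genes had this property and 0.93% had it with knockout higher. The log2 fold change was 0.15 (SE 0.056), an interval of 1.02- to 1.1997-fold, with an edgeR adjusted p of 0.366.

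Ndufa9, a supernumerary subunit at the junction of the matrix and membrane arms, read 74.97, 80.9, 79.8, 78.2 and 71.2 CPM in wild-type and 89.45, 93.8, 82.9, 82.5 and 76.0 in knockout. Of the knockout libraries, 8 fell among the wild-type values and the other 4 lay above them all. The log2 fold change of 0.14 (SE 0.059) had an edgeR adjusted p of 0.451. Ndufs8, a core subunit with iron-sulfur clusters, had 49.7 ± 2.66 CPM in wild-type and 54.2 ± 2.99 in knockout (adjusted p = 0.580 with edgeR), and Ndufv2, another core subunit, had 83.3 ± 7.04 and 90.6 ± 6.11 (adjusted p = 0.582).

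Ndufs5 was the only member lower in knockout at an unadjusted edgeR p of 0.05. With DESeq2, limma-voom or edgeR without the robust option, no member was lower at that limit. It had 10.9, 10.1, 10.2, 11.1 and 7.22 CPM in wild-type and 8.62, 6.63, 5.26, 9.69 and 9.34 in knockout. Wild-type 7 lay within the knockout range, so the groups overlapped, and the log2 fold change of -0.32 (SE 0.16) had an edgeR adjusted p of 0.563. Ndufb8, at 5.51, 4.40, 5.91, 3.78 and 3.51 CPM in wild-type and 7.36, 7.23, 4.28, 4.46 and 5.03 in knockout, had the largest positive log2 fold change, 0.30 (SE 0.19, edgeR adjusted p = 0.722). Only knockout 1 and 3 exceeded the wild-type range.

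Complex II summed to 451 ± 16.002 CPM in wild-type and 466 ± 19.97 in knockout, and the log2 fold changes of its 4 genes were all above 0, with a median of 0.036 and a highest value of 0.083. Sdha had 174, 183, 174, 168 and 175 CPM in wild-type and 183, 201, 195, 191 and 156 in knockout. Knockout 8 was the lowest of all 10 libraries for this gene and knockout 3 the highest, and the adjusted p with edgeR was 0.743. Sdhb had 106 ± 4.41 and 110 ± 4.35 CPM, and Sdhd, the other membrane anchor, 73.3 ± 7.90 and 74.4 ± 5.65. Sdhc was the steadiest of the 57 members, at 96.4 ± 2.99 CPM in wild-type and 96.6 ± 2.49 in knockout, with a mean coefficient of variation within genotype of 2.84%.

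Complex III summed to 914 ± 44.3 CPM in wild-type and 933 ± 42.2 in knockout, with 5 of 9 log2 fold changes above 0 and a median of 0.013. Its core and catalytic subunits (Uqcrc1, Uqcrc2, the Rieske iron-sulfur protein Uqcrfs1 and cytochrome c1, Cyc1) were all above 0, with a median of 0.062, and 1 of the 5 small supernumerary subunits (Uqcrh) was, with a median of -0.062. Uqcrc1 had 203, 210, 228, 225 and 207 CPM in wild-type and 216, 252, 231, 229 and 225 in knockout. The upper wild-type libraries, 5 and 6, lay among the knockout values, and the log2 fold change of 0.10 (SE 0.049) had an edgeR adjusted p of 0.553. Uqcrfs1 had 116 ± 6.32 CPM in wild-type and 123 ± 6.29 in knockout, Uqcrb, a small supernumerary subunit, 32.3 ± 5.35 and 30.5 ± 3.44, and neither passed (edgeR adjusted p = 0.690 and 0.902).

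Complex IV summed to 1369 ± 122 CPM in wild-type and 1384 ± 152 in knockout, the closest pair of sums relative to their spread. Of its 10 members, 7 had a log2 fold change above 0, the median was 0.010, and the range was -0.079 (Cox7c) to 0.097 (Cox6c). Cox7a2, a supernumerary subunit in its liver form, had the smallest p of the complex: 96.5, 99.8, 84.3, 95.2 and 90.5 CPM in wild-type stood against 94.8, 108, 77.4, 113 and 104 in knockout. The knockout libraries lay on both sides of the wild-type range, and the edgeR adjusted p was 0.844. Cox6c read 142 ± 13.6 and 152 ± 19.9 CPM and Cox7c 72.0 ± 10.9 and 68.1 ± 9.06.

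**Figure D3:**
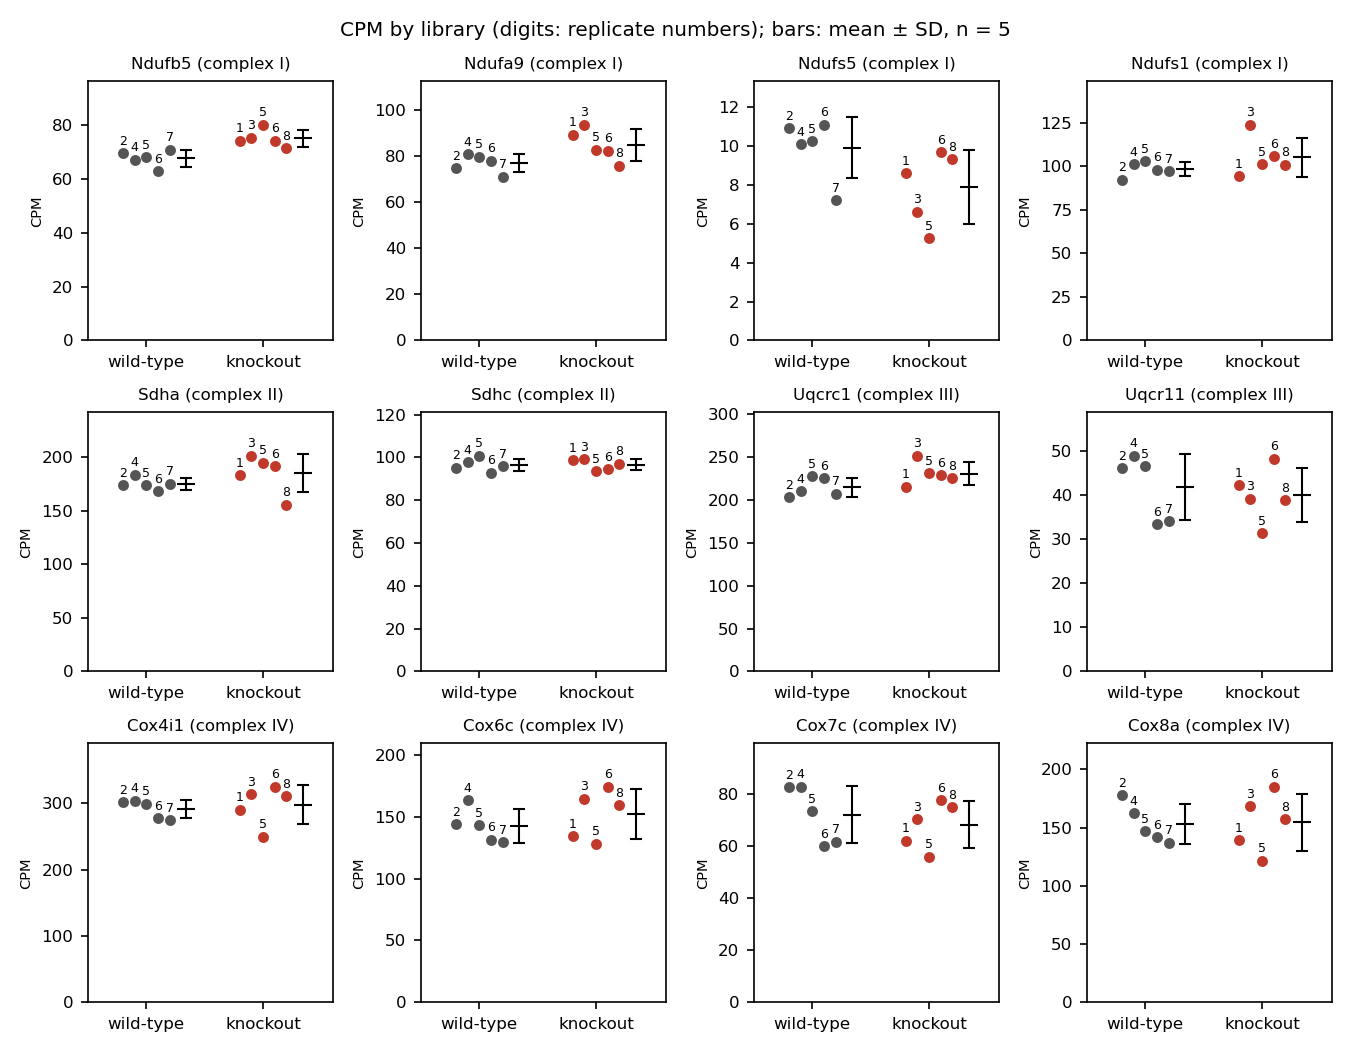
CPM of selected subunit genes in each library (points), with the group mean and SD (n = 5 per genotype). Ndufb5 is the gene whose knockout points all lie above its wild-type points, while the points of the other genes overlap between genotypes.

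The spread between libraries of 1 genotype was wider than the difference between genotypes. Each gene's log2 CPM was set against its own mean over the 10 libraries, and the median of these deviations over the 57 members was taken in each library. In wild-type 2, 4, 5, 6 and 7 it was 0.094, 0.089, 0.050, -0.167 and -0.103, and in knockout 1, 3, 5, 6 and 8 it was -0.018, 0.058, -0.138, 0.121 and 0.021. These came to -0.0075 ± 0.12 in wild-type and 0.0087 ± 0.097 in knockout. Wild-type 6, wild-type 7 and knockout 5 were thus low and wild-type 2, wild-type 4 and knockout 6 high, with low and high libraries in both genotypes. In wild-type 6 only 2 of the 57 members exceeded their own mean, and in knockout 6, 53 did.

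Knockout 5 was the lowest knockout library for 38 of the 57 members and knockout 6 the highest for 33. Among the wild-type libraries, 6 was lowest for 30 members and 7 for 19. Summed over all members, the level was 4021 to 4628 CPM in wild-type (4366 ± 280) and 4053 to 4805 in knockout (4464 ± 296), so the ranges of the genotypes largely coincided. In knockout 3, 5 and 6 the choroid plexus and ependyma markers summed to 9.55, 16.8 and 19.1 CPM, and the member deviations were 0.058, -0.138 and 0.121. Any part of tissue composition in the library pattern was not tested.

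**Figure D4:**
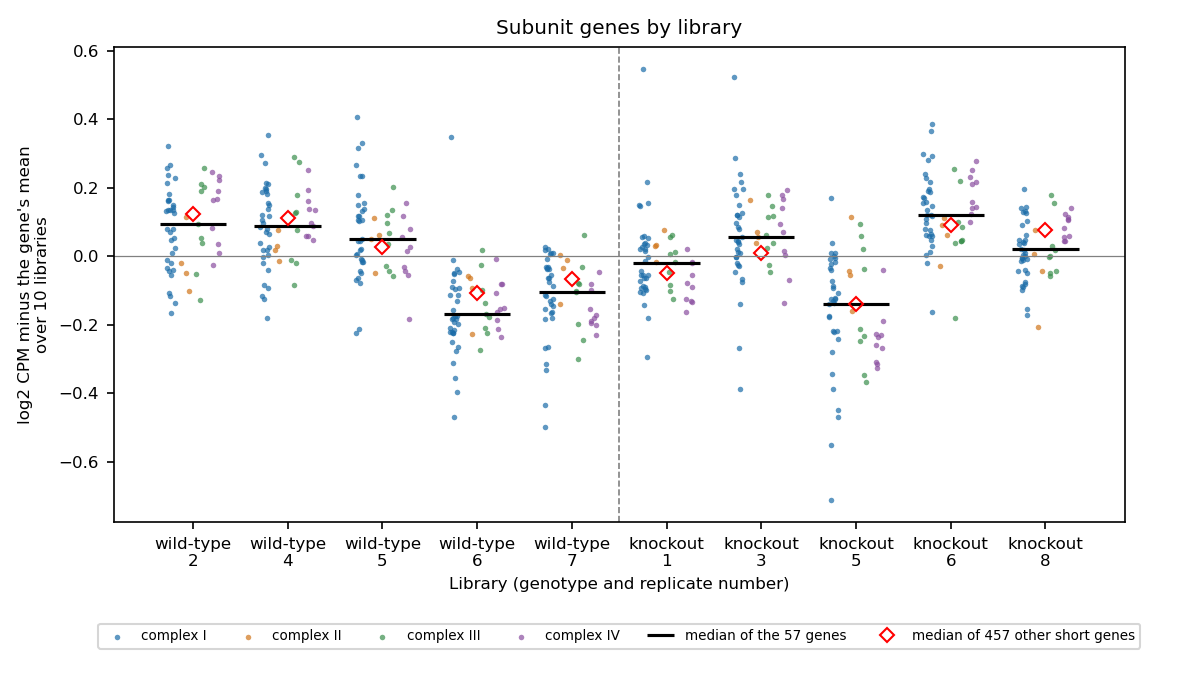
Deviation of each subunit gene (points, coloured by complex) from its own mean log2 CPM over the 10 libraries, with the median of the 57 genes (bars) and of 457 other genes with under 1000 exonic bases (diamonds). Both medians are low in wild-type 6, wild-type 7 and knockout 5 and high in wild-type 2, wild-type 4 and knockout 6.

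Complex IV swung the most. Its median deviation was 0.166, 0.115, 0.021, -0.152 and -0.176 in wild-type 2, 4, 5, 6 and 7, and -0.083, 0.083, -0.248, 0.186 and 0.094 in knockout 1, 3, 5, 6 and 8. Cox7c, its most variable member, had 82.4, 82.7, 73.4, 59.9 and 61.6 CPM in wild-type and 62.0, 70.1, 55.8, 77.6 and 74.9 in knockout. Cox8a, a small subunit, ran from 137 (wild-type 7) to 178 (wild-type 2) and from 122 (knockout 5) to 185 CPM (knockout 6). Complex II was the steadiest, with a median coefficient of variation within genotype of 5.20%, next to 9.24% for complex I, 10.003% for complex III and 11.5% for complex IV.

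The same spread separated roles within complexes. The 4 core and catalytic subunits of complex III had a median coefficient of variation of 5.22%, and its 5 small supernumerary subunits 12.9%. In complex I the core subunits had 6.43% and the supernumerary subunits 10.2%. Uqcr11, a small supernumerary subunit of complex III, varied by 16.6%, with 46.2, 49.0, 46.5, 33.5 and 34.1 CPM in wild-type and 42.3, 39.2, 31.3, 48.2 and 38.9 in knockout. Cyc1 varied by 4.40%. Counting error set a median of 3.05% for the members, and 2 members had a spread of at most 1.5 times their counting error. The tested genes at or above the level of the lowest member had a median of 8.10%.

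Role and transcript length went together. Of the members, 29 had under 1000 exonic bases and a median coefficient of variation of 11.4%, and the 28 others had 6.82%. The fold changes split by length too: 14 of 29 short members were above 0 (median -0.011) against 24 of 28 longer members (median 0.062). Of all tested genes, whatever their length, 49.1% were above 0. The share among all short or all longer genes was not taken. How far the split rested on single libraries was not tested. Outside the listed members, 457 tested genes with under 1000 exonic bases had median deviations of 0.122, 0.112, 0.028, -0.106 and -0.066 in wild-type 2, 4, 5, 6 and 7, and -0.047, 0.011, -0.139, 0.092 and 0.078 in knockout 1, 3, 5, 6 and 8. Only the members were left out, so off-list subunit genes such as Ndufa4 were kept, as were any short ribosomal protein genes. The libraries low for the respiratory chain were low for these 457 genes as well. Genes with over 3000 exonic bases had small deviations the other way, at 0.032, 0.014 and 0.036 in wild-type 6, wild-type 7 and knockout 5, and -0.023 in knockout 6. As 8279 of the 15488 tested genes, they weigh heavily in the scaling, so their small deviations are partly built in. The part of transcript length, RNA quality or library preparation in this pattern was not tested.

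Across libraries, the members rose and fell together. With genotype means removed, the median Pearson correlation over the 10 libraries was 0.51 for the 1596 pairs of members (Spearman 0.48), 88.2% of pairs were above 0, and the median over all pairs of tested genes was -0.00075. Pairs within complex IV were the tightest, with a median of 0.86 and every pair above 0. The medians within complexes III, I and II were 0.49, 0.45 and 0.26, with 69.4%, 89.7% and 83.3% of pairs above 0, so complex III was the most divided. Pairs between complexes reached 0.64 for III with IV and 0.61 for I with IV, higher than within complexes I, II or III. The points share libraries and their scaling, so these values are descriptions. They shrank to a median of 0.14 for all members and 0.22 for complex IV when the deviation of the other short genes was regressed out of each member.

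**Figure D5:**
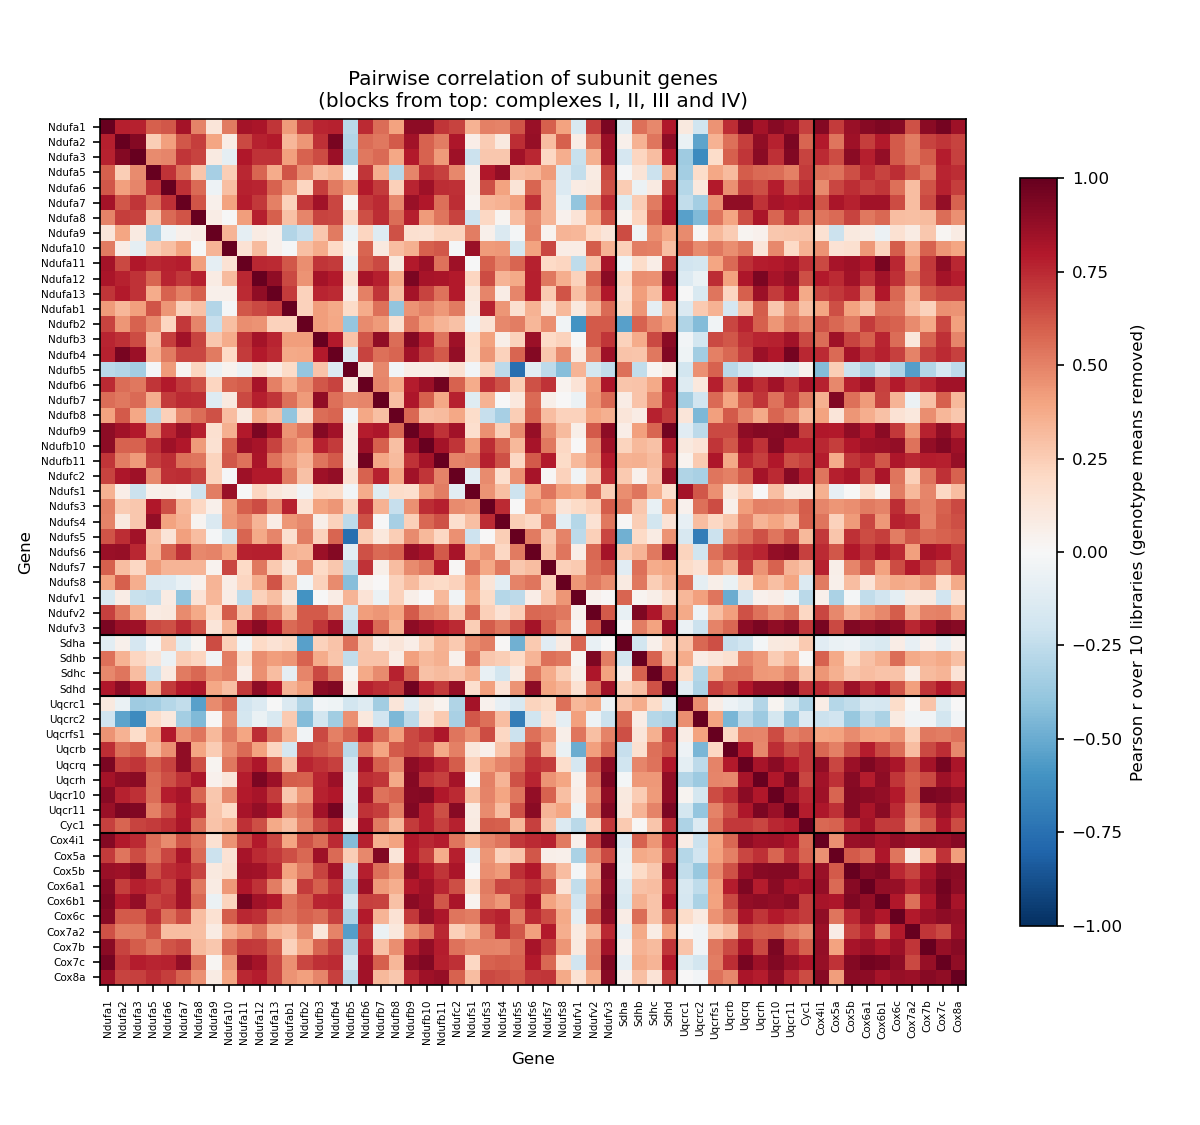
Pearson correlation of log2 CPM over 10 libraries, genotype means removed, for every pair of the 57 subunit genes, ordered by complex. The complex IV block is positive throughout (median 0.86), and Uqcrc1, Uqcrc2, Ndufb5, Ndufv1 and Sdha stand out as rows near or below 0.

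The members that tracked the rest most closely were Ndufv3, an accessory subunit of the NADH-oxidising module (Pearson 0.97 with the mean of the other members, n = 10 libraries), Ndufb9 (0.95), Uqcr10 (0.95) and Cox7c (0.95). Ndufv3 had 43.1, 44.2, 41.97, 33.9957 and 35.2 CPM in wild-type and 37.1, 40.1, 29.7, 47.4 and 40.3 in knockout, low in the same 3 libraries as the chain as a whole. At the other end, Uqcrc2 (-0.21), Ndufb5 (-0.13), Uqcrc1 (-0.043), Ndufv1 (0.0059) and Sdha (0.075) did not track the rest. Uqcrc2, the other core protein of complex III, had 147, 151, 146, 149 and 159 CPM in wild-type and 139, 165, 162, 157 and 147 in knockout, so knockout 5, low for most members, was among its higher libraries. These genes were chosen for their correlation, and no test was made.

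The nuclear respiratory factor NRF1, a transcription factor known to act on many respiratory chain genes, binds a GC-rich palindrome. Its core letters, GCGC followed by any base and then TGCGC, were searched on both strands in RefSeq promoter windows of GRCm38.p6, 250 bases before to 50 after each listed start, in which 47 of the 57 members had an entry. The core lay in 11 of the 47 (23.4%), namely 7 of 31 in complex I, 2 of 3 in complex II, 1 of 5 in complex III and 1 of 8 in complex IV, against 5.19% of 27025 genes with such windows. Those 27025 genes were not restricted to genes tested here, whereas all members were tested. The shares therefore do not show an excess particular to the respiratory chain. The stretches below are shown because they come from members that followed the common library pattern closely and from 1 that did not. Capitals mark the core, and each stretch is written 5′ to 3′ on the strand of the gene. For Sdhd and Sdha the core lies on the opposite strand, so the capitals are its reverse complement. The first capital lies 162, 79, 60 and 98 bases before the start site in turn.
Cox6a1 (chr5:115349101-115349130, minus strand): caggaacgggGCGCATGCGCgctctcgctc
Sdhd (chr9:50603909-50603938, minus strand): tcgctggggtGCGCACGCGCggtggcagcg
Ndufa11 (chr17:56717692-56717721, plus strand): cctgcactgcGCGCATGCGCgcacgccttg
Sdha (chr13:74350319-74350348, minus strand): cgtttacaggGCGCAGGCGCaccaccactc

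Cox6a1, Sdhd and Ndufa11 correlated with the mean of the other members at 0.90, 0.92 and 0.83, whereas Sdha, whose window held the core at 3 positions (98, 55 and 10 bases before the start), correlated at 0.075. The ETS letters bound by GABP, CCGGAAG on either strand, were found in 11 of 47 members (23.4%) and 9.93% of all genes, and the YY1 letters, AAGATGGCG, in 4 of 47 (8.51%), all in complex I, and 1.64%. Here too the comparison was with all genes that had a window, tested or not. A match is a match of letters in this window and not a measured site.

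The factors and partners of the chain also gave no called gene, where 0.381% of all tested genes were called. Of all tested genes, 49.1% had a log2 fold change above 0 and 4.19% were higher at an unadjusted edgeR p of 0.05. Of 12 regulators of mitochondrial biogenesis tested, 0 were called and 0 had an unadjusted p of 0.05 or less, with 4 log2 fold changes above 0 and a median of -0.018. Ppargc1a, a coactivator that drives mitochondrial gene programmes, had 51.5 ± 4.004 CPM in wild-type and 55.6 ± 3.13 in knockout (edgeR adjusted p = 0.690), and Gabpb1, a subunit of GABP, had 22.6 ± 1.86 and 21.1 ± 2.04 (adjusted p = 0.849). Among 43 tested assembly factors, 0 were called and 2 (4.65%) were higher at an unadjusted edgeR p of 0.05. The log2 fold change was above 0 for 31 of them (72.1%), with a median of 0.055. Ttc19, which is needed for complex III, read 79.4, 78.4, 74.7, 80.0 and 86.7 CPM in wild-type and 102, 83.4, 90.9, 86.4 and 88.2 in knockout. Wild-type 7 lay among the knockout values, and the edgeR adjusted p was 0.285. Taco1, a translational activator of a mitochondrially encoded complex IV subunit, had 8.53 ± 1.46 and 10.6 ± 2.29 CPM.

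Of 7 other subunit genes outside the list, 0 were called. Cycs, cytochrome c, had 138 ± 10.8 CPM in wild-type and 149 ± 10.2 in knockout (edgeR adjusted p = 0.589). Among 18 ATP synthase genes, 0 were called and 11 were above 0 (median 0.037), led by Atp5a1, the catalytic head's alpha subunit, at 761 ± 9.87 and 824 ± 66.5 CPM (adjusted p = 0.436), and Atp5h, a stalk subunit, at 84.6 ± 7.99 and 92.7 ± 5.56. The citric acid cycle list, which feeds the chain with NADH and succinate, had 0 of 18 genes called. Its log2 fold changes were above 0 for 16 of 18 (88.9%, against 49.1% of all tested genes), with a median of 0.068. At an unadjusted edgeR p of 0.05, 4 were higher (22.2%, against 4.19%). How far these list counts rested on single libraries was not tested.

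Pdha1, the X-linked alpha subunit of pyruvate dehydrogenase, had 203, 209, 206, 198 and 209 CPM in wild-type and 231, 254, 225, 233 and 208 in knockout. Knockout 8 fell within the wild-type range and the other 4 lay above it, with a log2 fold change of 0.17 (SE 0.049) and an edgeR adjusted p of 0.184. Dld, a subunit shared by several such dehydrogenases, had 101 ± 8.02 and 115 ± 8.60 CPM (adjusted p = 0.263). The cytosolic ribosomal protein genes, also short and abundant, had 0 of 79 called and a median of 0.011, with Rpl26 at 169 ± 9.65 and 193 ± 11.1 CPM (edgeR adjusted p = 0.129) and Rpl4 at 477 ± 15.2 and 516 ± 16.7 (0.375). Their mean deviation by library was 0.103, 0.096, 0.010, -0.087 and -0.112 in wild-type and -0.061, 0.023, -0.142, 0.050 and 0.118 in knockout, low in the same 3 libraries as the respiratory chain.

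The X-linked members were also set against Xist, the RNA of the inactive X chromosome, which was at or under 0.276 CPM in wild-type 7, knockout 3 and knockout 6 and at 727 CPM or above in the other 7 libraries. Ndufa1, Ndufb11 and Cox7b had log2 fold changes between genotypes of -0.18, -0.011 and 0.016, and with Xist as a covariate -0.19, -0.054 and 0.0015, none called. The libraries without Xist included 1 of the low ones (wild-type 7) and 1 of the high ones (knockout 6) for the chain as a whole.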

How the data were processed

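The authors deposited whole-number counts per gene with Entrez identifiers, unnormalized, with HISAT2 and featureCounts named as tools and mm39 as the build in the submitters' processing notes. The annotation, the strand setting and how multiply aligned reads were handled: not given in the sources used here. Symbols came from a RefSeq table of GRCm38.p6 (30648 of 30935 identifiers, 99.991% of counts). Exon lengths and shared 50-base stretches came from GENCODE models of GRCm38, another build than that of the files, and no coordinates were carried between builds.

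The test, in edgeR 4.0.16 under R 4.3.3, used filterByExpr, TMM factors, robust quasi-likelihood F statistics for genotype alone, two-sided p-values and Benjamini-Hochberg adjustment over 15488 genes at 0.05. Depth was 16479594 to 22391943 counts per library. Library pairs within a genotype differed by more than sampling noise, so each library counted as 1 replicate. Intervals are 95%. Deviations used log2 CPM with a prior count of 2. Alternatives covered scaling, filters, DESeq2 1.42.0, limma-voom (limma 3.58.1), libraries left out, a replicate block and covariates, and the fit was tested on simulated data. The covariate from short genes, the split of members at 1000 exonic bases, the checks on correlations and the exon length alternative were chosen after seeing the data.

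The members and lists were chosen with earlier results of these data known. Genes named are, per complex, the 3 with the smallest p, the 2 highest and 1 lowest in level, the most and least variable, those with an outlying library, and the 2 with the smallest p of each further list, plus isoforms with counts; 1 gene that this rule names is not reported here. Genes named for correlation, role, promoter letters or shared sequence were chosen after their values were seen.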

Additional observations from a re-analysis of the deposited data

Results flagged for a closer look

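In 4 of 126 groups of 5 libraries checked, 1 library stood further from the rest than Dixon's 95% limit of 0.71 allows, where chance gives about 1 in 20 groups. For Ndufa8, a supernumerary complex I subunit, wild-type 6 was lowest at 49.6 CPM, with the next library at 58.0. For Ndufa13, knockout 6 was highest at 60.9 CPM, with the next at 48.2. For Ndufab1, the mitochondrial acyl carrier protein, knockout 6 was highest at 62.0 CPM, with the next at 53.1. For Ndufs5, wild-type 7 was lowest at 7.22 CPM, with the next at 10.1. Wild-type 6, wild-type 7 and knockout 6 were also among the libraries that lay low or high for most members.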

How the results depend on the processing

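No member was called by edgeR, DESeq2 or limma-voom, nor in any of the other fits run. The number of all genes called, 59 in the fit reported, was 171 with no filter, 119 with DESeq2, 1 with the striatal covariate, 0 with the choroid covariate (where 5.08% of genes had an unadjusted p under 0.05), 27 with the Xist covariate, 91 with the ribosomal protein covariate, 93 with the short-gene covariate and 12 without knockout 3, 5 and 6. Leaving out 1 library gave 15 to 182, with 15 without wild-type 2, 21 without wild-type 4, 17 without wild-type 5 or knockout 3, 37 without knockout 6 and 182 without knockout 8. Members at an unadjusted p under 0.05 numbered 4 in the fit reported, where 8.71% of all tested genes had such a p. They numbered 2 without the robust option (8.84% of all genes), and 1 with the striatal covariate (3.9%). The choroid covariate gave 0 (5.08%), the Xist covariate 2 (7.73%) and the short-gene covariate 8 (9.85%). Without knockout 3, 5 and 6 there were 0 (6.75%). With 1 library left out there were 1 to 7. There was 1 without wild-type 2 (7.17%) or knockout 3 (6.91%), and 2 without wild-type 7 (8.01%). There were 7 without knockout 5 (9.44%) or knockout 8 (11.6%). The median log2 fold change of the members ranged from -0.011 without knockout 6 to 0.067 without knockout 5, and that of complex III became 0.14 with the striatal covariate. Upper-quartile scaling put 34 and total counts 35 of 57 members above 0. The median pair correlation fell to 0.14 with the short-gene and 0.29 with the ribosomal protein deviation regressed out, and that of complex IV to 0.22 and 0.44. The causes were not tested.

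The genotypes share the replicate numbers 5 and 6 alone, and same-numbered libraries did not deviate together (correlations of -0.030 and -0.057 over 15488 genes). Values for so few pairs cannot show whether same-numbered samples share more than a number. With a replicate block, 27 genes were called, 0 members were called and 2 members had an unadjusted p under 0.05, next to 3.52% of all genes.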
